A study of Mus musculus with 12 samples.

Results

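The AMPK-related kinases examined here are the salt-inducible kinases *Sik1*, *Sik2* and *Sik3*, the microtubule affinity-regulating kinases *Mark1*, *Mark2*, *Mark3* and *Mark4*, the kinases *Nuak1* and *Nuak2*, and *Brsk1*. These 10 genes were chosen by name, as kinases that act downstream of LKB1, from the 55401 genes in the count table, and all 10 were found there. The libraries hold RNA from mouse oocytes cut out of fixed ovary sections by laser capture, from primordial follicles (a resting oocyte with flattened pregranulosa cells) or primary follicles (a growing oocyte with cuboidal granulosa cells). There were 4 groups of 3 libraries each: primordial control, primordial DM, primary control and primary DM. DM is dorsomorphin, a small-molecule inhibitor of AMPK, and the control ovaries, called sham in the labels, received the solvent DMSO. The comparisons ask whether the kinases' transcripts differ with DM within each follicle stage, and between the stages.

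All ovaries came from females of 7 to 8 days, hybrids labelled C57Bl/6j x CBA/J (C57BL/6JRj and CBA/JRj parents in the study's methods), and by the study's methods both the DM and the DMSO ovaries were kept in culture for 5 days before fixation, whereas the labels call the samples in vivo. The lead DM concentration of the study was 10 µM, and the labels give no dose for these libraries. The oocytes were picked by their shape in stained sections and pooled before the RNA was amplified. The study describes the 3 libraries of a group as independent biological samples of pooled oocytes. The labels do not tie a library to given animals, so the p-values below measure the spread between pooled libraries, and would be too small if libraries shared animals.

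AMPK, the AMP-activated protein kinase, is a sensor of cell energy, and its catalytic subunit is switched on when LKB1 (encoded by *Stk11*) phosphorylates a threonine in its activation loop. LKB1 phosphorylates the matching threonine in a branch of related kinases. The SIKs hold CRTC coactivators and class IIa histone deacetylases in the cytoplasm, the MARKs release microtubule-associated proteins from microtubules and act in cell polarity, the NUAKs act on myosin phosphatase and cell adhesion, and BRSK1 acts in the polarity of neurons. Dorsomorphin blocks the activity of AMPK and also of other kinases, and RNA counts measure none of these activities.

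The activation loop holds the threonine that LKB1 phosphorylates in these kinases. Its coding sequence is shown for AMPKα1 (*Prkaa1*), for 1 SIK, for 3 MARKs, for *Nuak1* and for *Brsk1*. Each line gives 81 bases from the GENCODE release M21 transcripts (build GRCm38, also called mm10), read 5′ to 3′ on the coding strand, from the aspartate codon that opens the loop, and the capitals mark the codon of the threonine that LKB1 phosphorylates.
Prkaa1: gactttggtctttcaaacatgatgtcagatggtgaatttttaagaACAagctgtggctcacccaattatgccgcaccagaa
Sik2: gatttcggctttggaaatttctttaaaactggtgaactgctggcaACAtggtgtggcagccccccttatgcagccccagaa
Mark1: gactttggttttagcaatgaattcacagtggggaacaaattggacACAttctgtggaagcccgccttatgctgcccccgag
Mark2: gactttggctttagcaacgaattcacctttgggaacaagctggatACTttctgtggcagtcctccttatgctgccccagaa
Mark4: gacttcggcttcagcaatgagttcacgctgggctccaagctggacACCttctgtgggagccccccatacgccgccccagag
Nuak1: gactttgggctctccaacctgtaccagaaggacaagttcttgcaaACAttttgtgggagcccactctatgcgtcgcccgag
Brsk1: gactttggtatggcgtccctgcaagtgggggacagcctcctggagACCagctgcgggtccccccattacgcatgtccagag

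These stretches lie in coding exons: Mark1 at chr1:184919629-184919709 on the minus strand, Mark2 at chr19:7285843-7285923 on the minus strand, Mark4 at chr7:19443228-19443308 on the minus strand, and Nuak1 at chr10:84380780-84380860 on the minus strand, each within 1 exon. The stretches of Prkaa1 (chr15:5168706-5170002, plus strand), Sik2 (chr9:50917573-50935416, minus strand) and Brsk1 (chr7:4698761-4698943, plus strand) are split over 2 exons. As whole genes, *Mark1* (ENSMUSG00000026620.11) spans chr1:184896789-184999570, *Sik2* (ENSMUSG00000037112.16) spans chr9:50892801-51009073 and *Mark4* (ENSMUSG00000030397.11) spans chr7:19424775-19458821, and these are the members whose groups did not overlap in 1 of the comparisons below. The capital codon is that of threonine 183 in *Prkaa1*, 175 in *Sik2*, 215 in *Mark1*, 208 in *Mark2*, 214 in *Mark4*, 212 in *Nuak1* and 189 in *Brsk1*, counted in the annotated protein. *Nuak1* and *Nuak2* share 68 of the 81 bases (84.0%), *Mark1* and *Mark2* share 67 (82.7%), and the least alike members, *Mark3* and *Brsk1*, share 37 (45.7%). Against *Prkaa1* the members ranged from 48.1% (*Mark4*) to 63.0% (*Sik2*). Despite this likeness, the longest exact run shared by transcripts of any of the 45 pairs of members was 65 bases, between *Mark1* and *Mark3*, so reads that lie within such a run could not be placed between these genes. Exons of *Sik2* overlap those of *Ppp2r1b* on the opposite strand over 1429 bases, and since the use of strand in counting is not given in the sources used here, reads in that overlap cannot be told apart.

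The libraries held between 14034586 and 42639326 counts (median 34482004), and a library detected between 4206 and 10687 genes at more than 3 counts, which is the number of counts taken here as the detection floor. The floor amounts to between 0.0704 and 0.214 CPM (counts-per-million, the count scaled by the library total), for counting error only, since the RNA was amplified and the reads carry no molecular identifiers. Of the 17728 genes with any count, 2002 passed the floor in all 12 libraries. The 100 highest genes took 51.2% of the counts in primary control 3 and 35.6% to 48.5% in the 3 primary DM libraries, against 24.3% to 31.8% in the other 8. The 13 oocyte markers summed to between 7.71 and 1460 CPM, with 3 to 12 of them over the floor in a library, whereas 8 stroma markers summed to between 1949 and 12863 CPM and 9 granulosa cell markers to between 12.6 and 11211 CPM. Of the oocyte markers, *Ddx4* and *Kit* passed the floor in all 12 libraries, *Zp1* in 11, *Zp2* in 10 and *Gdf9* in 9, whereas *Figla* and *Oosp1* did so in 3 and 2. Of the granulosa markers, *Foxl2*, *Wt1* and *Inha* passed it in all 12 and *Fshr* was at 0 in all 12. The 6 blood and endothelium markers summed to between 0.0661 and 609 CPM. Of these, the haemoglobin genes *Hbb-bs* and *Hba-a1* were at 0 in all 12 libraries. *Kdr* passed the floor in 9 libraries (up to 21234 counts), *Cdh5* in 5 (up to 1055), *Ptprc* in 3 and *Pecam1* in 1. The stroma markers thus exceeded the oocyte markers in summed level in the libraries labelled as oocytes, and the part of other cells in the results below was not tested.

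Per length, *Mark2* had the highest level of the kinases. Its median over the 12 libraries was 12 RPKM (the CPM divided by the length of the gene's merged exons in kilobases), followed by *Sik3* at 6.74, *Mark3* at 4.35, *Mark1* at 3.97, *Mark4* at 0.500 and *Sik2* at 0.279. *Sik1* (0.0161), *Brsk1* (0.00648) and *Nuak1* (0.00235) had medians that stand for counts at or under the floor, and *Nuak2* had no count in any library, where 3 counts would have been the limit. None of the 9 neighbouring pairs in this order differed beyond the spread over libraries by an exact two-sided paired permutation test on log2(RPKM + 0.01). The smallest p was 0.0312 for *Nuak1* against *Nuak2* (0.281 after Benjamini-Hochberg adjustment over the 9 pairs). As *Nuak2* had no count, that difference could not fall below 0, and its p only reflects the 6 libraries with any *Nuak1* count. The other 8 pairs gave p from 0.280 to 0.887 by the same test. The order was taken from the same values that these tests use. *Mark2* was above *Sik3* in 8 of the 12 libraries.

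*Sik3* and *Mark4* passed the floor in all 12 libraries, *Mark2* and *Mark3* in 11, *Mark1* in 10, *Sik2* in 9, *Sik1* in 4, *Brsk1* in 3 and *Nuak1* in 1. At over 10 counts *Mark4* was detected in 7 libraries, *Sik3* and *Mark2* in 10, *Mark3* in 9, *Mark1* and *Sik2* in 8 and *Brsk1* in 1. By library, 6 to 7 of the 10 members passed it in primordial control, 5 to 6 in primordial DM, 6 to 9 in primary control and 4 to 6 in primary DM. The last group detected 4670 to 5314 genes in all, primary control 4206 to 7839, primordial DM 5216 to 7616 and primordial control 7085 to 10687.

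**Figure D1:**
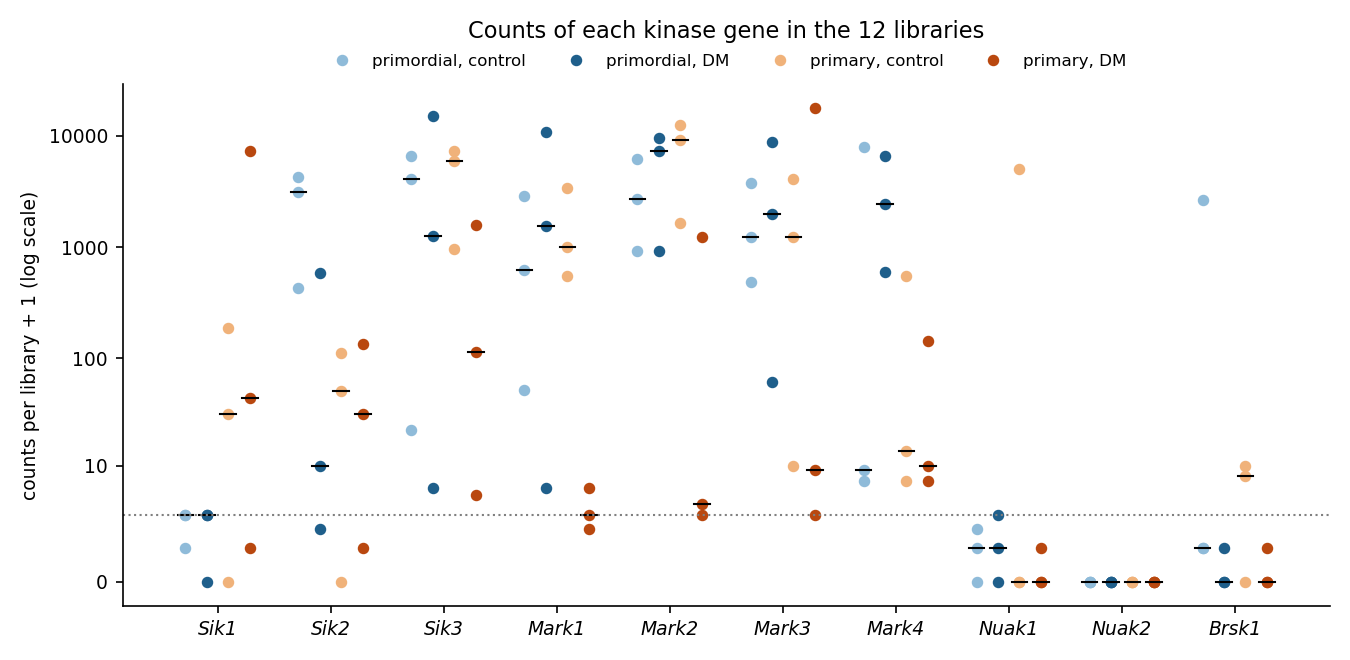
Raw counts of the 10 kinases (side by side in 1 panel, log axis of count + 1) in the 12 libraries, grouped by follicle stage and treatment. Points are libraries, black ticks are group medians and the dotted line marks 3 counts. *Mark1* lies between 2 and 6 counts in the 3 primary DM libraries and at 551 or more in primary control, and *Nuak2* is at 0 throughout.

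The salt-inducible kinases differed from each other in where they were detected. *Sik1*, whose transcript is the cAMP-inducible one of the 3, had 3, 1 and 3 counts in primordial control, 3, 3 and 0 in primordial DM, 188, 0 and 31 in primary control, and 7300, 44 and 1 in primary DM. Every primordial library was therefore at or under the floor, and 1 primary DM library (265 CPM) held 97.1% of the CPM summed over all 12. *Sik2* had 4249, 3150 and 435 counts in primordial control, 2, 10 and 592 in primordial DM, 50, 113 and 0 in primary control, and 31, 1 and 135 in primary DM. Its level was 75.3 CPM ± 42.6 (SD, n = 3) in primordial control and 9.49 ± 16.1, 3.17 ± 4.29 and 1.67 ± 1.97 (SD, n = 3 each) in the groups that follow in that order. *Sik2* was thus highest in the 3 primordial control libraries by CPM of the library totals, although the lowest of them (28.8 CPM) and the highest primordial DM library (28.1 CPM) were nearly level.

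*Sik3* had 6537, 4070 and 22 counts in primordial control, 1263, 15010 and 6 in primordial DM, 7318, 957 and 5926 in primary control, and 1579, 115 and 5 in primary DM. The primary control libraries were the most alike, at 158 CPM ± 78.6 (SD, n = 3), and the other groups each held 1 or more libraries at 2.70 CPM or less. Summed over the 3 SIKs, the level was between 30.5 and 285 CPM in primordial control, 28.4 and 430 in primordial DM, 76.2 and 222 in primary control, and 3.75 and 324 in primary DM, so the 4 groups overlapped.

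Of the MARKs, *Mark1* was the one at 6 counts or fewer in all libraries of a group. It had 2877, 625 and 52 counts in primordial control, 1553, 6 and 10852 in primordial DM, 1012, 3392 and 551 in primary control, and 3, 2 and 6 in primary DM. All 3 primary DM libraries were at or near the floor, and of the other 9 libraries only primordial DM 2 was as low. *Mark2* had 6148, 2713 and 924 counts in primordial control, 7310, 935 and 9531 in primordial DM, 12390, 1655 and 9201 in primary control, and 4, 1225 and 3 in primary DM. It stood at 924 counts or more in every library other than primary DM 1 and primary DM 3.

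*Mark3* had 1239, 3774 and 485 counts in primordial control, 1978, 8732 and 61 in primordial DM, 4101, 1247 and 10 in primary control, and 9, 17827 and 3 in primary DM. Its highest and its lowest library were both of the primary DM group (418 and 0.0855 CPM). *Mark4* had 7867, 7 and 9 counts in primordial control, 6538, 2430 and 597 in primordial DM, 14, 555 and 7 in primary control, and 7, 10 and 143 in primary DM. The 3 primordial DM libraries were all at 28.4 CPM or more, a level that primordial control 1 (208 CPM) and primary control 2 (39.5 CPM) also passed. Summed over the 4 MARKs, the level was 479, 192 and 97.2 CPM in primordial control, 454, 347 and 999 in primordial DM, 514, 488 and 314 in primary control, and 0.835, 447 and 4.42 in primary DM, where 2 libraries lay below every other one.

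*Nuak1* and *Brsk1* were each seen in quantity in 1 library. *Nuak1* had 5015 counts in primary control 1, which was 99.8% of its summed CPM, and 0 to 3 counts in the other 11 libraries. *Brsk1* had 2667 counts in primordial control 1 (98.5% of its summed CPM), 8 and 10 in primary control 1 and 2, and 0 or 1 elsewhere. Its exons overlap those of *Tmem150b*, which had no count in any library. With counts of this kind the levels of both genes could not be compared between groups at this depth, and no fold change is given for them.

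This unevenness was not particular to the kinases. Over the 8288 genes with at least 10 counts in at least 3 libraries, the library with the highest CPM held a median of 52.1% of a gene's summed CPM (range 12.5% to 99.9%), against a median of 39.8% (25.5% for *Mark2* to 97.1% for *Sik1*) for the 7 kinases among them. These 7 passed the floor in a median of 11 libraries, and the 8288 genes in 8. The 7 were kept by a rule on counts, so their medians describe only genes that pass it. Across the 10 kinases and 4 groups, 18 of the 40 combinations had all 3 libraries over the floor, and in 12 of these the highest library exceeded the lowest by more than 10 times in CPM (range 2.65 to 2994 times, median 19.8).

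**Figure D2:**
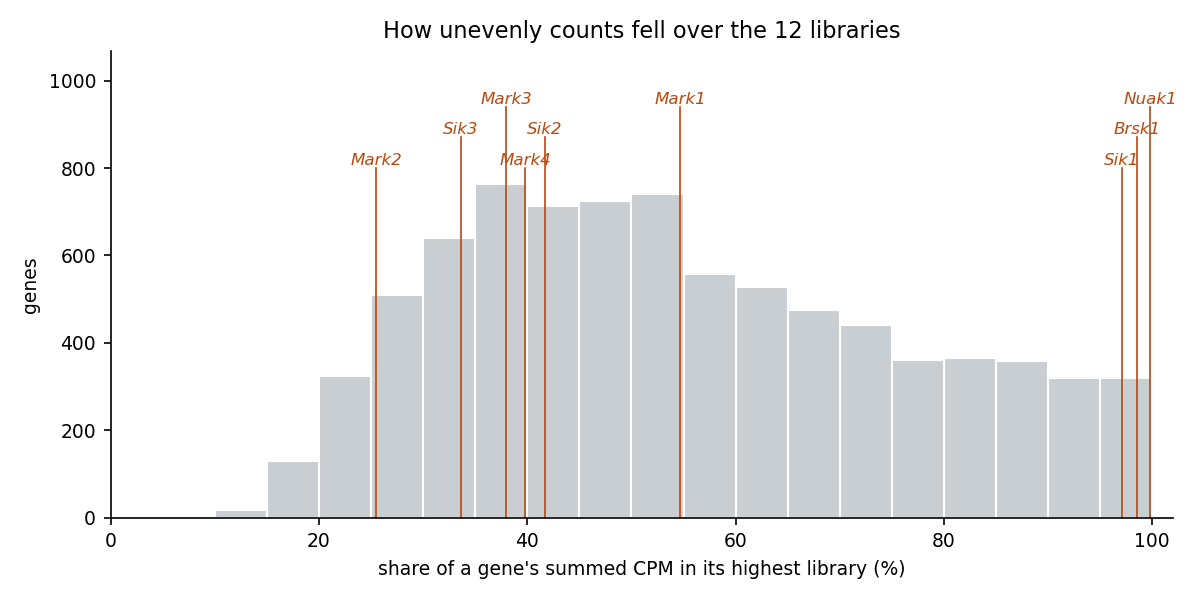
Share of a gene's CPM summed over 12 libraries that its highest library holds (x axis, percent) for 8288 genes with at least 10 counts in at least 3 libraries (bars, number of genes on the y axis). The 7 kinases among them are marked, and so are *Nuak1* (99.8%) and *Brsk1* (98.5%), which are not among these genes. *Mark2* is the most even of the 7 at 25.5% and *Sik1* the least at 97.1%.

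The kinase that led the family changed from library to library. By RPKM, *Mark4* (33.4% of the 10 kinases' sum), *Sik3* (26.6%) and *Mark2* (50.8%) led in primordial control 1, 2 and 3, and *Mark4* (46.4%), *Sik3* (51.1%) and *Mark1* (64.1%) in primordial DM. In primary control the leaders were *Mark2* (39.6%), *Mark1* (57.6%) and *Mark2* (60.0%), all of the MARK family. In primary DM they were *Sik1* (89.0%), *Mark3* (91.2%) and *Mark4* (64.1%), the last in a library where the family summed to 1.36 RPKM. Thus 6 different kinases led in the 12 libraries, with a median share of 54.4%.

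**Figure D3:**
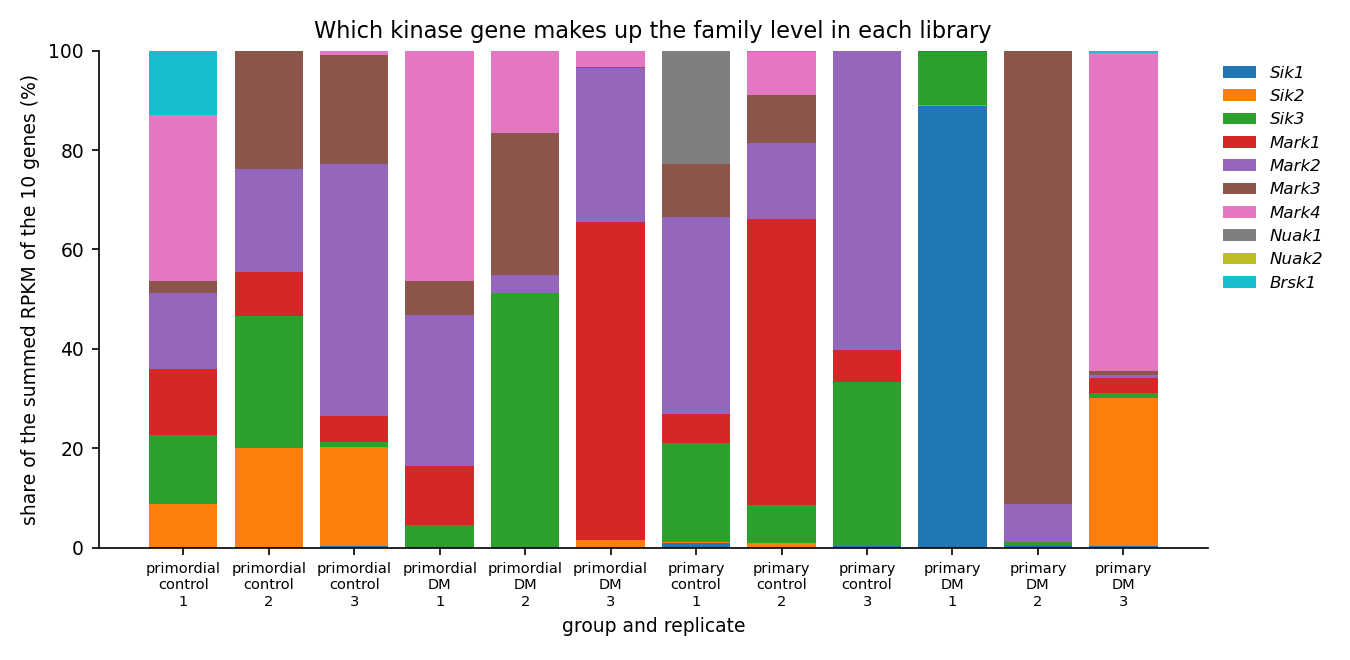
Composition of the kinase family in each library, as the percent of the 10 kinases' summed RPKM (y axis) that each kinase holds, with libraries ordered by group on the x axis. The leading kinase differs between libraries of the same group, with shares of 26.6% to 91.2%.

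Summed over the family, the level was 835, 387 and 128 CPM in primordial control, 488, 778 and 1028 in primordial DM, 883, 565 and 505 in primary control, and 325, 451 and 8.47 in primary DM. The order of the group means depended on the scaling. By library totals they were 450, 764, 651 and 261 CPM in the same order of groups, so that primary DM was lowest, and by TMM-normalized CPM they were 226, 627, 922 and 691, so that primary DM lay above both primordial groups. Pairwise correlations of log2(CPM + 1) over the 12 libraries, given as a description since the values share library and depth, ran from −0.48 (*Sik1* and *Mark2*) to 0.77 (*Mark1* and *Mark2*) over 21 pairs of 7 kinases, with a median of 0.16. Among the 8287 other genes, those most like *Mark2* by Pearson's r over the 12 libraries were *Rpl13*, a ribosomal protein gene (0.88), *Mta1*, a subunit of the NuRD complex (0.88), and *Tln1*, the adhesion protein talin (0.85).

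In primordial follicles, none of the kinases passed an adjusted p of 0.05 between DM and control (edgeR quasi-likelihood test), beside 0.0149% of the 6699 genes tested. The 6 members tested were *Sik2*, *Sik3* and the 4 MARKs. Their fitted log2 fold changes, DM over control, ran from −2.16 ± 3.11 (SE) for *Sik2* to 3.64 ± 2.92 for *Mark1*. Here and below, the SE of an edgeR value is the absolute log2 fold change divided by the square root of the test's F statistic. It is thus derived from the test and not fitted separately. *Mark2* stood at 1.96 ± 2.55 (adjusted p = 0.872 by edgeR), *Mark4* at 1.43 ± 3.00, *Sik3* at 1.38 ± 2.73 and *Mark3* at 1.19 ± 2.91. Of the 5 values above 0, all but that of *Mark1* lay within their SE of it. The median over the 6 was 1.41 against 0.13 over all genes tested, and it was 2.20 against 0.56 with DESeq2's size factors and 0.78 against −0.43 with library size alone. At an unadjusted p under 0.05, 0 of the 6 and 7.33% of all genes were counted, and 0 of the 6 had groups without overlap against 12.6% of all genes. DESeq2, which the study itself used, called 13.7% of the genes to which it gave an adjusted p and none of these members, though it gave *Sik2* and *Mark1* no adjusted p. The *Mark1* value rested on primordial DM 3 (515 CPM), and without it the log2 fold change was −0.03. Without primordial DM 2, that of *Sik3* became −2.08 and that of *Mark3* −0.85, and without primordial control 1 that of *Mark4* became 8.05.

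In primary follicles, *Mark1* was lower in all 3 DM libraries than in all 3 control libraries. It passed the filter on low counts only through the control libraries, so a gene tested with these counts had to differ, and the p-values below are conditioned on that. At 50.4 TMM-normalized CPM ± 39.2 (SD, n = 3) in control and 0.164 ± 0.0991 (SD, n = 3) in DM, the fitted log2 fold change was −8.23 ± 3.86 (SE), with an unadjusted p of 0.0328 and an adjusted p of 0.395 by edgeR's quasi-likelihood test, so it did not pass the threshold. The DM libraries hold 2 to 6 counts, at or near the floor, so the size of this fold change depends on the prior count of the fit, and with library size alone it was −9.86. An unadjusted p under 0.05 was reached by 12.2% of the 4181 genes tested and by this 1 of 7 members, and 13.3% of all genes had groups without overlap, against the same 1 of 7. No gene passed an adjusted p of 0.05 by edgeR (0% called, with 508 genes at an unadjusted p under 0.05). DESeq2 called *Mark1* (log2 fold change −7.34, adjusted p = 0.000630) along with 33.3% of the genes to which it gave an adjusted p (4 of the 7 members had none), and over the alternatives tried its adjusted p ran from 0.000630 to 0.999. With 1 library left out the edgeR value stayed between −8.70 and −7.51 and the adjusted p between 0.249 and 0.621. Over the same libraries, the oocyte markers summed to between 7.71 and 1460 CPM in control and between 56.1 and 1115 in DM, and the granulosa markers to between 832 and 7451 and between 787 and 11211, and their part in the difference was not tested. In pooled oocytes fewer cells of a kind and less RNA per cell cannot be told apart.

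The other 6 members tested in primary follicles overlapped between DM and control. *Mark2* (−3.85 ± 3.51), *Sik3* (−3.37 ± 3.40) and *Mark4* (−1.08 ± 2.55) had fitted values below 0, and *Sik1* (5.62 ± 3.53), *Mark3* (3.50 ± 3.46) and *Sik2* (0.99 ± 2.37) above it, all as log2 fold change ± SE and with adjusted p from 0.420 to 0.833 by edgeR. Several of these values turned on 1 library. Without primary DM 1, *Sik1* stood at −0.38. Without primary DM 2, *Mark3* went from 3.50 to −6.80 and *Mark2* to −11.18. *Mark4* stood at 2.65 without primary control 2, and *Sik2* at −0.94 without primary DM 3. The median over the 7 members was −1.08, against 0.31 over all genes tested. With DESeq2's size factors in edgeR these medians were 1.29 and 2.04, and with library size alone −2.99 and −0.96, so the members' median lay below that of all genes under each scaling, but its sign depended on the scaling.

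**Figure D4:**
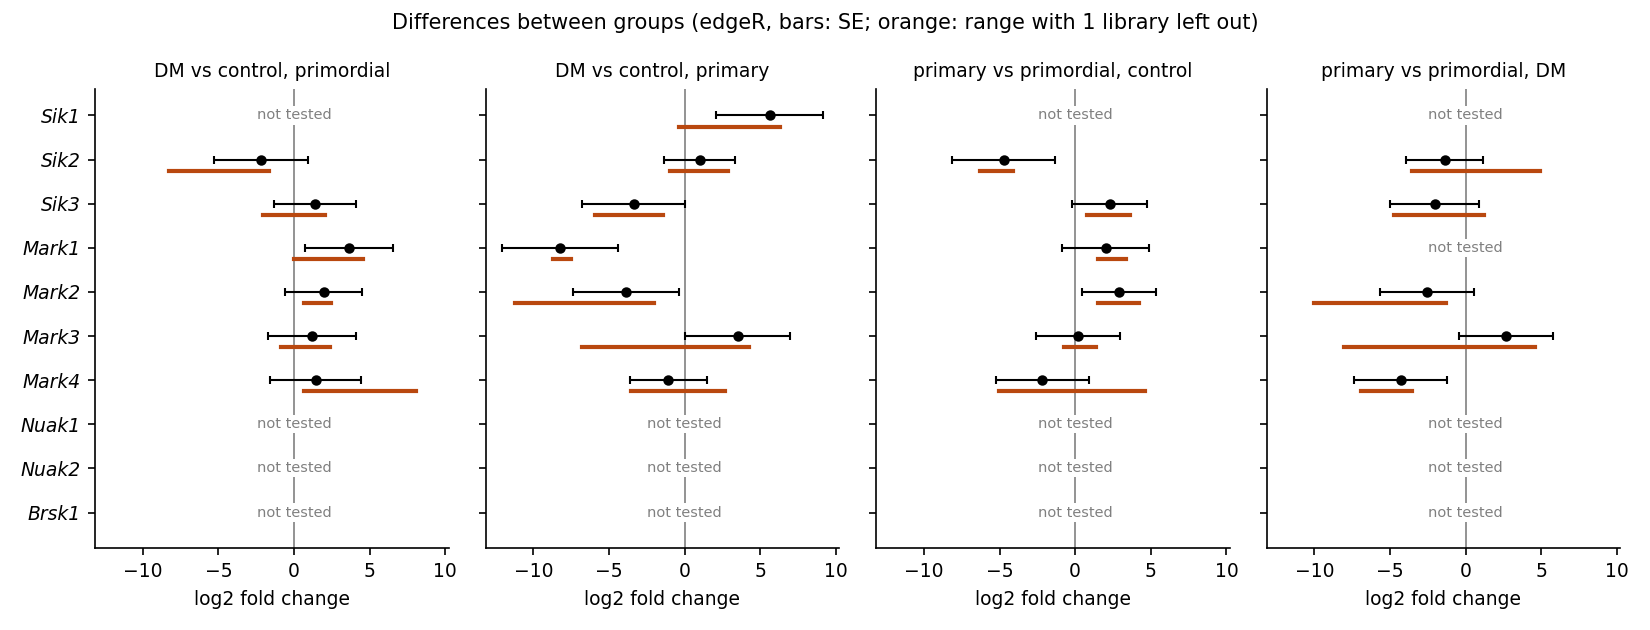
Fitted log2 fold change (x axis) of each kinase in the 4 comparisons, with bars of 1 SE (edgeR, 3 against 3 libraries) and, in orange, the range when 1 library is left out; kinases removed by the filter on low counts are marked as not tested. The orange range of *Mark1* in primary follicles stays between −8.70 and −7.51, and that of *Mark3* runs from −6.80 to 4.28.

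Between the stages in control ovaries, *Sik2* was the member whose groups did not overlap. It was lower in primary than in primordial follicles in all 3 libraries, at 2.20 TMM-normalized CPM ± 2.73 against 58.4 ± 31.1 (SD, n = 3 each), with a fitted log2 fold change, primary over primordial, of −4.73 ± 3.42 (SE) and an adjusted p of 0.830 by edgeR. *Sik2* reached the filter on low counts only with the primordial libraries, so its p and the absence of overlap are conditioned on that. It was 1 of the 6 members tested, where 9.55% of the 6726 genes had groups without overlap. An unadjusted p under 0.05 was reached by 0 of the 6 and by 6.44% of all genes, and an adjusted one by 0% in edgeR. DESeq2 gave *Sik2* an adjusted p of 0.0715 and called 6.27% of its genes, none of them a member, though *Sik3* and *Mark2* had no adjusted p there. Without any 1 library the edgeR value of *Sik2* stayed between −6.28 and −4.14. *Mark2* (2.89 ± 2.44), *Sik3* (2.28 ± 2.47) and *Mark1* (2.01 ± 2.88) had fitted values above 0 in every fit with 1 library left out, each without passing the test. *Mark3* stood at 0.18 ± 2.78. *Mark4* stood at −2.17 ± 3.07 and at 4.63 without primordial control 1, the library that held 7867 of its counts. The median over the 6 was 1.09 against −0.31 over all genes (1.98 against −0.03 with DESeq2's size factors, 0.52 against −0.50 with library size alone).

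Between the stages in DM-treated ovaries, *Mark4* was lower in all 3 primary libraries than in the 3 primordial ones, at 2.86 TMM-normalized CPM ± 4.15 against 55.8 ± 42.1 (SD, n = 3 each). Its fitted log2 fold change was −4.29 ± 3.08 (SE, adjusted p = 0.425 by edgeR), it was −5.95 with library size alone, and it stayed between −6.95 and −3.57 with 1 library left out. *Mark4* reached the filter on low counts only with the primordial libraries, so its p and the absence of overlap are conditioned on that. It was 1 of the 5 members tested without overlap, against 16.2% of the 4331 genes tested. Of the 5, 0 reached an unadjusted p under 0.05, against 17.2% of all genes. No gene passed by edgeR's adjusted p (0% called), and DESeq2 called 37.6% of its genes and none of these 5 (*Mark3* had no adjusted p). *Sik2* (−1.38 ± 2.54), *Sik3* (−2.05 ± 2.95) and *Mark2* (−2.57 ± 3.10) had fitted values below 0 and *Mark3* (2.66 ± 3.13) above it. Without primary DM 2, *Mark3* stood at −8.04, without primordial DM 2 *Sik3* stood at 1.18, and without primordial DM 3 *Sik2* stood at 4.88. *Mark1* was removed by the filter on low counts here, with 1553, 6 and 10852 counts in primordial and 3, 2 and 6 in primary follicles. The median over the 5 was −2.05 against 0.35 over all genes (−0.51 against 2.04 with DESeq2's size factors, −2.99 against −0.96 with library size alone). These stage comparisons use the same libraries as the DM comparisons, so they are not separate evidence.

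The difference between the DM effects of the stages (the log2 change in primary follicles minus that in primordial follicles) was tested in 1 fit over the 12 libraries and 8500 genes. *Mark1* had a difference of −11.55 ± 4.76 (SE), with an unadjusted p of 0.0152 and an adjusted p of 0.182 by edgeR. It was the 1 of 7 members with an unadjusted p under 0.05, against 18.9% of all genes, and no gene passed the adjusted threshold (0%, with 1605 genes at an unadjusted p under 0.05). DESeq2 called it (−12.57, adjusted p = 0.000390) with 15.0% of its genes, and gave 4 of the 7 members no adjusted p. With 1 library left out the difference for *Mark1* stayed between −12.51 and −8.11. *Mark2* (−5.64 ± 3.93), *Sik3* (−4.40 ± 3.94) and *Mark4* (−2.03 ± 4.01) were on the same side of 0, and *Sik1* (6.25 ± 4.36), *Sik2* (3.50 ± 4.17) and *Mark3* (2.63 ± 3.75) on the other, with adjusted p from 0.412 to 0.807 by edgeR. Their direction also depended on single libraries for *Sik1* (−0.15 without primary DM 1), *Mark3* (−8.04 without primary DM 2) and *Mark4* (1.06 without primary control 2). The median over the 7 was −2.03 against −0.42 over all genes (−1.02 against 0.71 with DESeq2's size factors, −3.50 against −1.25 with library size alone).

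Of the genes that act around these kinases, none passed an adjusted p of 0.05 by edgeR in any of the 5 tests. The list of LKB1 complex and AMPK subunits had 12 genes, of which 7 were tested between DM and control in primordial follicles (3 higher, 4 lower, median log2 fold change −1.08 against 0.13 over all genes, none with an unadjusted p under 0.05) and 3 in primary follicles (1 higher, 2 lower, 1 with an unadjusted p under 0.05, which 12.2% of all genes reached). *Prkab2*, the β2 subunit, had the smallest p of the list in primordial follicles (−6.03 ± 3.35, adjusted p = 0.658 by edgeR), with 2810, 18 and 11 counts in control and 0, 10 and 4 with DM, so the groups nearly met. The 1 gene of the primary follicles was *Prkab1*, the β1 subunit of AMPK, with 7637, 70 and 110 counts in primary control and 2, 9 and 3 in primary DM (log2 fold change −7.27 ± 3.65 SE, adjusted p = 0.396 by edgeR). Like *Mark1*, it passed the filter on low counts only through the group where it was high. In primordial DM *Prkab1* had 1622, 3545 and 2980 counts, so the 2 stages did not overlap under DM (−7.89 ± 3.63, adjusted p = 0.286 by edgeR). The same held for 16.2% of the genes tested there. This comparison uses the same primary DM libraries, so it is not separate evidence. *Prkab1* passed its filter on low counts only through primordial DM, so its p and the absence of overlap are conditioned on that. Between the stages in control 9 genes of the list were tested (5 higher in primary, 4 lower, of which 2 had an unadjusted p under 0.05, beside 6.44% of all genes). Between the stages under DM only 1 was tested, *Prkab1*. It had an unadjusted p under 0.05, beside 17.2% of all genes. In the test of the difference between DM effects 9 were tested, and 2 above and 2 below 0 had an unadjusted p under 0.05, beside 18.9% of all genes. *Cab39*, the MO25 scaffold that holds LKB1 in its active form, had 4239, 5340 and 2712 counts in primordial control and 5, 19 and 4 in primary control (−7.86 ± 3.70, adjusted p = 0.749 by edgeR), and under DM 6653, 7 and 60 in primordial and 3, 4 and 2 in primary follicles. All 6 primary libraries of *Cab39* thus lay at or under 19 counts, and so did primordial DM 2. In the control comparison *Cab39* too reached the filter on low counts only with the primordial libraries, so its p is conditioned on that. *Cab39l*, its paralog, had the smallest unadjusted p of this list in the test of the difference between DM effects (19.39 ± 5.86, adjusted p = 0.0974 by edgeR), on counts of 1506, 3278 and 0 in primordial control, 0, 1 and 0 in primordial DM, 13, 2 and 0 in primary control and 1663, 2 and 2 in primary DM. As the primordial DM libraries lay under the floor, the size of this value depends on the prior count of the fit. In primary DM 1 library held nearly all of its counts.

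The 19 substrates and partners of the SIK, MARK and NUAK kinases were tested more often, with 15 tested in primordial (10 higher with DM, 5 lower) and 13 in primary follicles (7 higher, 6 lower). In each stage 2 of them had an unadjusted p under 0.05, both higher, beside 7.33% of all genes in primordial and 12.2% in primary follicles, counted in either direction. *Map2*, a microtubule-associated protein that MARKs phosphorylate, had 242, 32 and 3 counts in primordial control and 6, 16 and 10423 in primordial DM (7.27 ± 3.59, adjusted p = 0.658 by edgeR), a value carried by 1 library. It had 17589, 8 and 2 counts in primary control and 7, 4 and 5 in primary DM. Between the stages in control its value was 6.61 ± 3.38 (adjusted p = 0.749 by edgeR). The difference between its DM effects was −15.51 ± 5.19 (adjusted p = 0.121 by edgeR). It was the smallest p of this list in both tests, on counts held mostly by 1 library of a group. *Crtc2*, a coactivator that SIKs phosphorylate, had 14, 128 and 8 counts in primary control and 9, 50994 and 16 in primary DM (9.36 ± 4.30, adjusted p = 0.395), again through 1 library. *Crtc1* had 684, 10 and 661 counts in primordial DM and 1, 0 and 2 in primary DM (−7.81 ± 3.35, adjusted p = 0.286 by edgeR), so these groups did not overlap, and it too passed the filter only through the higher group. Of the 5 other kinases of the branch, 1 was tested between DM and control in primordial and 2 in primary follicles, with no unadjusted p under 0.05. *Hunk*, which had the smallest p of them in primary follicles, stood at 76, 8 and 11 counts with DMSO, whereas 1 library treated with DM held 14300 and the others 1 each. *Snrk*, with the smallest p of them between the stages in control (log2 fold change 4.10 ± 3.19, adjusted p = 0.836 by edgeR), had 106, 4 and 4 counts in primordial and 94, 680 and 0 in primary control. Between the stages, 15 substrates and partners were tested in control (6 higher in primary, 9 lower) and 14 under DM (8 higher, 6 lower), with an unadjusted p under 0.05 for 0 and 1 of them, beside 6.44% and 17.2% of all genes. For the difference between DM effects 15 were tested (8 above 0, 7 below). On each side 1 had an unadjusted p under 0.05, beside 18.9% of all genes in either direction.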

How the data were processed

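Laser-captured oocytes were sequenced in 12 libraries, 3 in each of 4 groups taken from the labels. The authors deposited raw counts per gene. Reads were trimmed with Trim Galore and counted with featureCounts on mm10. TopHat2 is the aligner in the study's methods and STAR in the submitters' processing notes, and the library kit is also described in more than 1 way. Strand use is not given in the sources used here. Amplification and laser capture of fixed tissue can lose transcripts, and counts then vary between libraries by more than sampling.

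Symbols were matched for 55141 of 55401 identifiers and 54349 identifiers had the version of the GENCODE release M21 annotation. Counts were tested with edgeR 4.0.16 in R 4.3.3 (TMM, filterByExpr, quasi-likelihood test, prior count 0.125, Benjamini-Hochberg threshold 0.05). Each pairwise comparison used its 6 libraries and the test of the difference between DM effects used all 12. DESeq2 1.42.0, other scalings, no filter, a replicate block, all libraries in 1 fit and each library left out were alternatives. CPM divides by library totals, and the absence of overlap was judged on TMM-scaled CPM. RPKM divides CPM by merged exon length. Order, sequences and figures were made with Python 3.11.15, NumPy 2.4.6, SciPy 1.17.1 and Matplotlib 3.10.9. The code of the tests was tried on simulated counts with a far smaller spread between libraries than these data. That trial therefore does not show how the tests perform here. Depth was 14034586 to 42639326 counts. No 2 replicates agreed within sampling noise (smallest chi-square per degree of freedom 1750).

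All 10 members were named, with the 3 genes most like the member of highest median CPM. Of the lists of surrounding genes none passed the adjusted threshold. Those named had the smallest p of their list in a comparison, and not every such case is given. The members and lists were chosen with earlier results of these data known. The marker lists were fixed in the same way.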

Additional observations from a re-analysis of the deposited data

How the results depend on the processing

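The counts of genes past the adjusted threshold depended on the tool. Between DM and control in primordial follicles edgeR called 1 gene, DESeq2 650, an unadjusted p under 0.05 gave 491, and DESeq2 size factors, library size alone, no filter, the replicate block and all 12 libraries in 1 fit gave 0 each, with 0 to 3 when 1 library was left out. In primary follicles DESeq2 called 698 and an unadjusted p gave 508, against 0. Between stages in control, DESeq2 called 287, library size alone 1 and an unadjusted p gave 433, against 0. Between stages under DM, DESeq2 called 934 and an unadjusted p gave 746, against 0, and leaving out 1 library gave 0 to 4 (4 without primary DM 2, 2 without primary DM 1 and 2 without primary DM 3). For the difference between DM effects DESeq2 called 677 and an unadjusted p gave 1605, against 0. The cause was not tested.

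Same-numbered libraries did not visibly deviate together (correlations of deviations −0.04 to 0.05, median 0.005, over 18 pairs). Pairs with different numbers gave −0.1 to 0.07 (median −0.005, over 36 pairs). Replicates differed so much that shared animals could go unseen, so whether the numbers pair the libraries is not known. With the replicate block the log2 fold change turned for *Sik3* with DM in primordial follicles (−0.48), for *Mark3* (−2.41) and *Mark4* (0.06) with DM in primary follicles, for *Mark3* (−0.85) and *Mark4* (0.80) between stages in control, and for *Sik2* (0.09) and *Mark3* (−3.25) between stages under DM. With DESeq2, and with its size factors in edgeR, *Mark4* with DM in primary follicles was 1.29 and *Mark3* between stages in control −0.08. With library size alone *Sik2* with DM in primary follicles was −1.05.

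With 1 library left out, values that turned ranged as follows. With DM in primordial follicles they were −2.08 to 2.03 for *Sik3*, −0.03 to 4.57 for *Mark1* and −0.85 to 2.40 for *Mark3*. With DM in primary follicles they were −0.38 to 6.29 for *Sik1*, −0.94 to 2.87 for *Sik2*, −6.80 to 4.28 for *Mark3* and −3.51 to 2.65 for *Mark4*. Between stages in control they were −0.76 to 1.35 for *Mark3* and −5.03 to 4.63 for *Mark4*. Between stages under DM they were −3.54 to 4.88 for *Sik2*, −4.72 to 1.18 for *Sik3* and −8.04 to 4.57 for *Mark3*. For the difference between DM effects they were −0.15 to 6.46 for *Sik1*, −8.04 to 4.67 for *Mark3* and −8.71 to 1.06 for *Mark4*.

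The members' SEs, derived from the test statistic, were 2.37 to 4.76 on the log2 scale with 3 libraries a group. A p over the threshold does not show that groups were alike. Counts at or under 3 set no level.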
